A study of Mus musculus and Bos taurus with 26 samples.

Results

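Class II and class IV histone deacetylases were followed by mRNA level in preimplantation embryos of mouse and cattle in which the class I enzymes HDAC1 and HDAC2 had been disturbed. The members were chosen by gene name, 7 of the 27988 genes in the mouse values and the same 7, in upper-case symbols, of the 21577 genes in the bovine values. They are Hdac4, Hdac5, Hdac7 and Hdac9 (class IIa), Hdac6 and Hdac10 (class IIb) and Hdac11 (class IV). The study holds 26 libraries of poly(A) RNA from whole embryos. Mouse embryos gave 22 of them, in 11 groups, and bovine embryos the other 4, in 2 groups; each group has 2 libraries. Its title asks whether HDAC1/2 is required in both species for zygotic genome activation (ZGA), the first transcription from the embryo's own genome.

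Late 2-cell mouse embryos, collected 36 h after fertilization, made up 9 groups. Zygotes had received mutant Hdac1, WT Hdac1, mutant Hdac2 or WT Hdac2 mRNA, or H2O. In a further pair of groups, mutant Hdac1 mRNA in the zygote was followed by Kdm5b mRNA or H2O in 2 blastomeres of the early 2-cell embryo; Kdm5b removes methyl groups from lysine 4 of histone H3. The last pair was grown from the zygote in 50 nM FK228 (romidepsin, an inhibitor directed mainly at class I histone deacetylases) or in DMSO, its solvent. Embryos given mutant or WT Hdac1 mRNA were also taken as early 2-cell embryos at 24 h, and bovine 8/16-cell embryos cultured with 50 nM FK228 or with DMSO were taken at 72 h. The labels give neither the mutations, nor the mouse strain, nor the number of embryos pooled in a library, and the embryos keep their own Hdac1 and Hdac2 beside the injected mRNA. Nothing in the labels says that the 2 libraries of a group came from separate cultures. P-values therefore rest on a spread that could be purely technical.

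Class IIa enzymes have little deacetylase activity of their own and act as repressors that bind MEF2 transcription factors and draw in HDAC3 with the NCoR/SMRT corepressors. Their phosphorylation by calcium-dependent kinases and their kin makes them bind 14-3-3 proteins and leave the nucleus. Hdac6 deacetylates tubulin, cortactin and HSP90 in the cytoplasm, Hdac10 removes acetyl groups from polyamines, and Hdac11, the single class IV enzyme, removes long fatty acyl groups from proteins such as SHMT2. FK228 is far weaker on class II and IV enzymes than on class I enzymes, so their mRNA is a readout that lies beside its main targets.

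Across the series, 10704 to 14554 genes reached 1 FPKM (fragments per kilobase of transcript, scaled to library size) in a mouse library and 11598 to 12141 in a bovine one. The correlation between the libraries of a group was 0.955 to 0.989 in mouse, lowest in the late Hdac1 mutant group, and 0.983 to 0.985 in cattle. Absolute depth is unknown from FPKM; relative depth of the mouse libraries ran from 0.661 to 1.31. The injected mRNA was seen as Hdac1 at 4780 ± 240 FPKM in late Hdac1 mutant embryos, 2830 ± 179 in Hdac1 WT embryos and 90.8 ± 2.05 in H2O embryos, so the mutant and WT groups did not carry equal amounts. Hdac1 was at 861 ± 79.0 FPKM in Hdac1 mutant then H2O embryos, less than in the other late mutant group. Hdac2 stood at 2370 ± 106 FPKM in Hdac2 mutant embryos and 1620 ± 222 in Hdac2 WT embryos (SD, n = 2 throughout).

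In GENCODE M21 on GRCm38 all 7 members are protein-coding genes. Hdac4 lies at chr1:91928779-92195699, Hdac5 at chr11:102194432-102230166, Hdac7 at chr15:97792664-97844502, Hdac9 at chr12:34047580-34917095, Hdac6 at chrX:7930120-7947889 and Hdac10 at chr15:89123307-89128700, all on the minus strand, and Hdac11 at chr6:91156665-91174692 on the plus strand. RefSeq promoters on GRCm38.p6, from 250 bases before to 50 after a start, were at hand for 6 members in 10 entries, with none for Hdac10. The 4 below are shown because Hdac7 and Hdac11 are the pair that rose together after HDAC1/2 was disturbed, while Hdac6 and Hdac9 moved in opposite directions between the early and late 2-cell stage. Capitals mark GC boxes (GGGCGG or its complement CCGCCC) and CCAAT boxes (CCAAT or ATTGG), searched on both strands.
Hdac7 (chr15:97831446-97831745, minus strand): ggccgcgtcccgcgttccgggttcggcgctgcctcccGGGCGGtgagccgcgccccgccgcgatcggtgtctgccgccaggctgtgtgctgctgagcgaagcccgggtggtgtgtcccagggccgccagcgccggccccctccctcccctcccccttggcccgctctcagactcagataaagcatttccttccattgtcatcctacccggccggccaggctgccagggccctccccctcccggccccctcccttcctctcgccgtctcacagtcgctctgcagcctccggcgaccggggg
Hdac11 (chr6:91156565-91156864, plus strand): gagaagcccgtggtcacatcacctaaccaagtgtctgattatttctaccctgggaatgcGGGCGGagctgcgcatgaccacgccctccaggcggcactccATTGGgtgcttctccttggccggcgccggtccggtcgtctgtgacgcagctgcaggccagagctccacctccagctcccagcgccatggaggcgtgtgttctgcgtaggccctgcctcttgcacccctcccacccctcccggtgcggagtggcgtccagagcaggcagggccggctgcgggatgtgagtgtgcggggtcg
Hdac6 (chrX:7947840-7948139, minus strand): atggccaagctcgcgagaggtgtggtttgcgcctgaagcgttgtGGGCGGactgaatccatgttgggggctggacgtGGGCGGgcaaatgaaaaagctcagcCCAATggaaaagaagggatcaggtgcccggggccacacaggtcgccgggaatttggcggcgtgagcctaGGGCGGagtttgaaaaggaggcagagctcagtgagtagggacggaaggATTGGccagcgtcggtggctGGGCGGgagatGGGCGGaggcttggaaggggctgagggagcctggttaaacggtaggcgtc
Hdac9 (chr12:34917046-34917345, minus strand): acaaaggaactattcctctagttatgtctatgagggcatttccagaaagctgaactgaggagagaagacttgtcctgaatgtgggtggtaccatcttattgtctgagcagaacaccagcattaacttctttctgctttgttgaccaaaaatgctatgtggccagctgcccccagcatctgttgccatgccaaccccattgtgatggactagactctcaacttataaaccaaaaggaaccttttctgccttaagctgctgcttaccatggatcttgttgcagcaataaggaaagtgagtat
The Hdac7 promoter has 73.7% GC and 1 GC box, and the Hdac11 promoter 66.7% GC with 1 GC box and 1 CCAAT box. The Hdac6 promoter has 62% GC, 5 GC boxes and 2 CCAAT boxes. The Hdac9 promoter is the odd one, with 44.0% GC, 0 CpG dinucleotides, neither box, and 1 TATAAA. Of 32851 promoters of this length, 35.7% hold a GC box, 37.4% a CCAAT box and 13.6% a TATAAA on either strand, and their median GC content is 52.7%. Hdac7 has 4 RefSeq starts and Hdac9 has 2, and FPKM per gene do not say which start was in use. The Hdac7 entries not shown have 54.7 to 65.7% GC and neither box. The Hdac9 entry not shown has 45.3% GC, 3 CpG dinucleotides, neither box and no TATAAA.

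Hdac6 was the most abundant member in all 18 late 2-cell mouse libraries and Hdac9 in all 4 early ones. At the late stage Hdac6 made up 33.2 to 73.3% of the summed FPKM of the 7 genes, a sum of 34.0 to 73.5 FPKM. At the early stage the sum was 15.1 to 18 FPKM, and Hdac9 made up 32.8 to 34.9% of it. In cattle HDAC11 led in all 4 libraries, with 34.3 to 58.2% of a sum of 81.6 to 112 FPKM; the bovine values were normalized apart from the mouse ones, so only the order within a species is read here. Within the late mouse embryos, Hdac7 and Hdac11 together held 12.4 to 36.1% of the sum in the 10 libraries with mutant mRNA or FK228 and 0.304 to 2.46% in the 8 libraries with WT mRNA, H2O or DMSO.

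**Figure D1:**
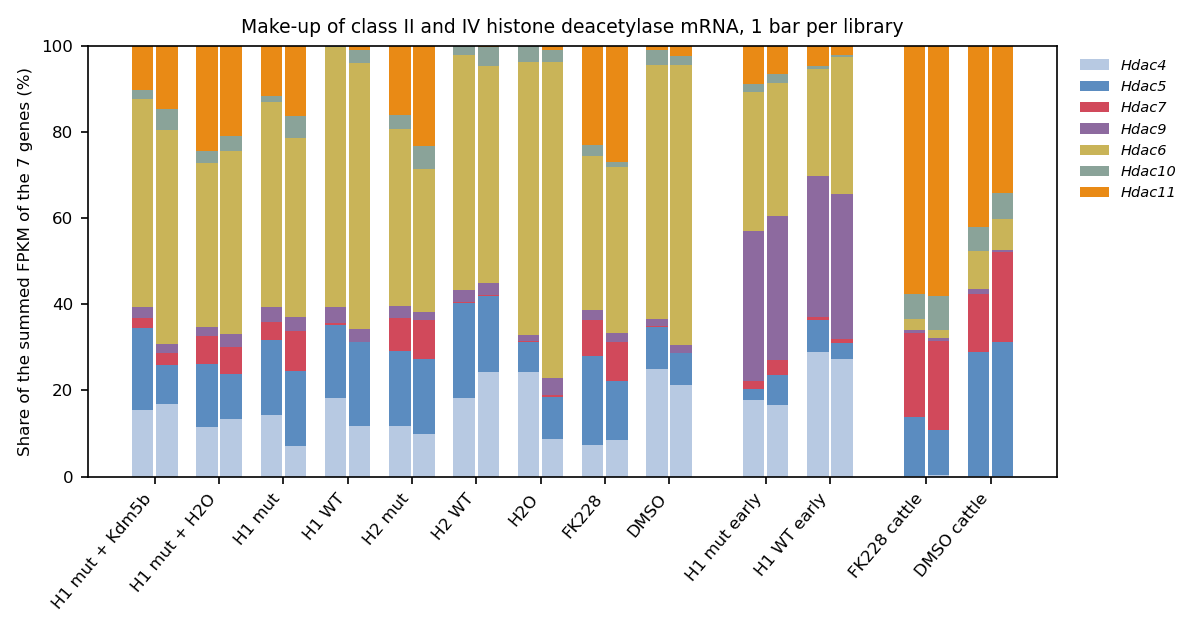
Share of each gene in the summed FPKM of the 7 class II and IV histone deacetylases (y axis, percent), with 1 stacked bar per library and 2 bars per group (x axis; H1 and H2 stand for Hdac1 and Hdac2 mRNA, mut for mutant). Hdac11 is a broad band in late mutant and FK228 embryos and almost absent from WT, H2O and DMSO embryos, Hdac9 is broad only at the early stage among the mouse libraries shown, and HDAC11 is the largest band in cattle.

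Hdac7 and Hdac11 rose in each of the 4 late 2-cell comparisons that disturb HDAC1/2, and they were the only members called in all of them. Hdac6 was lower in all 4 by estimate, from −0.69 to −0.31 on the log2 scale, but was called in only 1. The comparisons share no library with each other: Hdac1 mutant against Hdac1 WT, Hdac1 mutant then H2O against H2O, Hdac2 mutant against Hdac2 WT, and FK228 against DMSO. Hdac1 mutant then H2O embryos also differ from H2O embryos by a second injection and by carrying injected mRNA at all. The part of these in that comparison was not tested. Changes were tested with limma on log2(FPKM + 1), where the added 1 shrinks the change of genes near 0, and a gene was called at an adjusted p under 0.05 over all genes tested. All 7 members passed the filter of at least 1 FPKM in at least 2 libraries. Hdac7 did so only through mutant and FK228 embryos, since none of the other 8 late libraries and none of the 4 early ones reached 1 FPKM. Hdac11 also needed mutant or FK228 libraries to pass. It reached 1 FPKM in 1 of those 8 late libraries and in 0 of the 2 early Hdac1 WT libraries. Calls were frequent among all genes, 52.1% in Hdac1 mutant embryos, 52.6% in Hdac1 mutant then H2O embryos, 53.0% in Hdac2 mutant embryos and 57.2% in FK228 embryos, against 2, 3, 3 and 5 of the 7 members in the same order. Counts this close to the background are no result about the 7 genes as a group, and the members are therefore described singly.

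Hdac7, the class IIa member best known from developing endothelium and thymocytes, was under 1 FPKM in every late embryo library given WT mRNA, H2O or DMSO. Its values were 1.83 and 4.44 FPKM in Hdac1 mutant embryos, against 0.212 and 0 FPKM in Hdac1 WT embryos. They were 3.95 and 3.92 FPKM in Hdac1 mutant then H2O embryos, against 0.108 and 0.160 FPKM in H2O embryos. No library of an injected control reached the lowest mutant library. Hdac2 mutant embryos had 4.45 and 5.90 FPKM, against 0.117 and 0.118 FPKM in Hdac2 WT embryos. FK228 embryos had 6.04 and 6.57 FPKM, against 0.142 and 0 FPKM in DMSO embryos. Taking all late mouse libraries, the 10 with mutant mRNA or FK228 ran from 1.35 to 6.57 FPKM and the other 8 from 0 to 0.212 FPKM, with no overlap. The log2 changes were 1.84 ± 0.26 (SE) for Hdac1 mutant, 2.12 ± 0.26 for Hdac1 mutant then H2O, 2.46 ± 0.26 for Hdac2 mutant and 2.77 ± 0.26 for FK228, with limma adjusted p of 2.13e-05, 5.58e-06, 1.02e-06 and 2.13e-07. Hdac7 is listed at 0 in 2 of the control libraries, and a 0 among FPKM need not mean that no read was there. Hdac7 shares its last 29 bases, 0.429% of its exonic length, with Slc48a1 on the opposite strand, and no strand-marking step is described for these libraries. Slc48a1, a haem transporter, stood between 3.03 and 8.37 FPKM in all 22 mouse libraries and rose by 0.59 ± 0.17 to 0.68 ± 0.17 on the log2 scale in the 3 comparisons other than Hdac2 mutant (limma adjusted p of 0.00274 to 0.00801).

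Hdac11 showed the same pattern at a higher level. It had 5.20 and 7.84 FPKM in Hdac1 mutant embryos, against 0 and 0.570 FPKM in Hdac1 WT embryos. It had 14.9 and 12.9 FPKM in Hdac1 mutant then H2O embryos, against 0.0295 and 0.456 FPKM in H2O embryos. The groups were far apart in both. Hdac2 mutant embryos had 9.39 and 15.3 FPKM, against 0.150 and 0.237 FPKM in Hdac2 WT embryos. FK228 embryos had 16.6 and 19.9 FPKM, against 0.654 and 1.71 FPKM in DMSO embryos. DMSO embryos thus had the most Hdac11 of the late controls, yet their higher library was below the lowest mutant library. The log2 changes were 2.56 ± 0.32 for Hdac1 mutant, 3.60 ± 0.32 for Hdac1 mutant then H2O, 3.45 ± 0.32 for Hdac2 mutant and 3.18 ± 0.32 for FK228, with limma adjusted p of 6.12e-06, 2.13e-07, 2.73e-07 and 4.51e-07. In all 10 late libraries with mutant mRNA or FK228, Hdac11 exceeded Hdac7 per unit of length, by 1.76 to 5.21 times. The antisense gene Gm14573 inside Hdac11 never exceeded 0.378 FPKM.

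**Figure D2:**
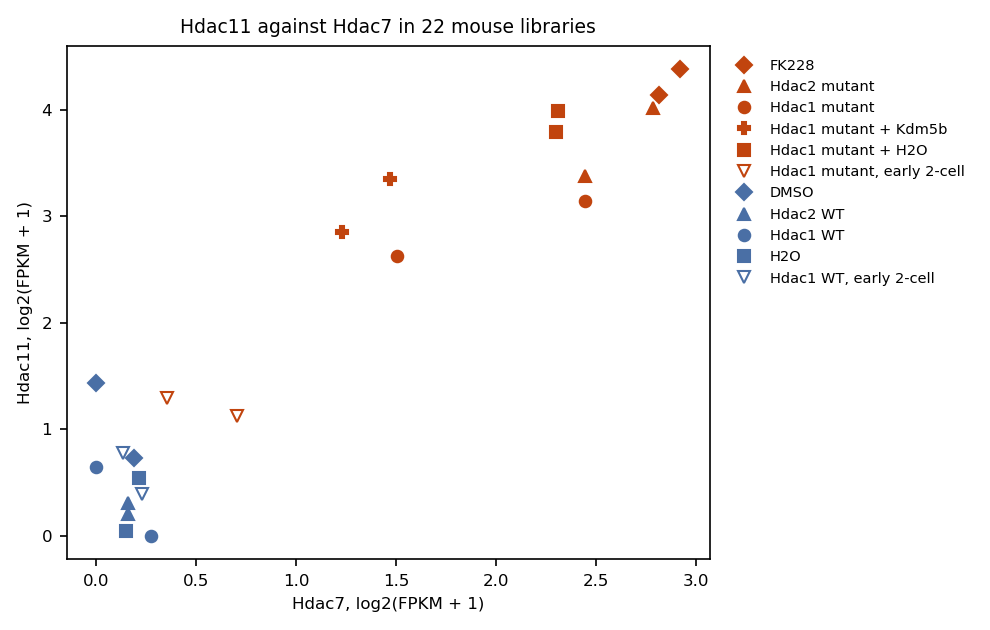
Hdac11 (y axis) against Hdac7 (x axis), both as log2(FPKM + 1), in each of the 22 mouse libraries, with a marker per group. Late embryos with mutant mRNA or FK228 form a separate cloud at the upper right, with FK228 embryos highest. The early Hdac1 mutant libraries lie between that cloud and the others on the Hdac7 axis. On the Hdac11 axis the higher DMSO library is above them.

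Summed levels of marker genes of other cell types differed between the same groups, some higher and some lower. The 9 blood markers summed to 103 to 118 FPKM in Hdac1 mutant embryos against 3.16 to 5.42 in Hdac1 WT embryos, 132 to 144 in Hdac1 mutant then H2O embryos against 4.77 to 5.60 in H2O embryos, 158 to 162 in Hdac2 mutant embryos against 5.18 to 7.39 in Hdac2 WT embryos, and 168 to 186 in FK228 embryos against 9.56 to 15.4 in DMSO embryos. Of these markers, 5 were tested and 4 or 5 of them rose (Cd74, Lyz2, Hba-a1 and Hba-a2 in each comparison). The defining blood genes Ptprc, Hbb-bs and Hbb-bt stayed at or below 0.394 FPKM in every mouse library. Markers of muscle and neuron, tissues rich in class IIa enzymes, summed to 5.80 to 6.46 FPKM in Hdac1 mutant embryos against 0.360 to 1.51 in Hdac1 WT embryos, and to 14.2 to 17.2 in FK228 embryos against 0.850 to 1.28 in DMSO embryos. Of these, 4 were tested, 2 or 3 rose and 0 fell in each of the 4 comparisons. The 11 cumulus and granulosa cell markers had lower sums, 14.3 to 20.3 FPKM in Hdac1 mutant embryos against 41.3 to 49.7 in Hdac1 WT embryos, 24.6 to 29.8 in Hdac1 mutant then H2O embryos against 33.3 to 48.6 in H2O embryos, 29.5 to 30.9 in Hdac2 mutant embryos against 55.7 to 70.7 in Hdac2 WT embryos, and 15.7 to 26.6 in FK228 embryos against 63.6 to 67.6 in DMSO embryos. Of the 6 tested, 1 fell in each comparison and 1 to 3 rose. The sums rest largely on Amhr2, which was called in each comparison. It reached 64.9 FPKM, beside 16.8 FPKM for Foxl2, the next highest of these markers. The 12 oocyte markers also summed lower in all 4 comparisons, for example to 608 to 693 FPKM in Hdac1 mutant embryos against 1100 to 1230 in Hdac1 WT embryos and to 642 to 672 in FK228 embryos against 1010 to 1030 in DMSO embryos. All 12 were tested, but only 2 fell in each comparison and 0 or 1 rose, where 18.1 to 26.3% of all genes fell. The part of these genes in the rise of Hdac7 and Hdac11 was not tested. Neither can fewer cells of a type be told apart from less RNA per cell in whole-embryo libraries.

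The protein-coding genes that flank the members were also examined, in comparisons where 30.5 to 34.5% of all genes rose. Fbln2, an extracellular matrix gene 37763 bases from Hdac11, rose in all 4 comparisons, for example at 11.7 ± 0.868 FPKM in FK228 embryos and 0.696 ± 0.391 FPKM in DMSO embryos (limma log2 change 2.92 ± 0.20, adjusted p = 8.77e-09). On the other side, Nup210, a nuclear pore gene, changed in 1 of the 4, with a log2 difference of 0.65 ± 0.22 in Hdac1 mutant then H2O embryos (limma adjusted p = 0.023). Beside Hdac7, Vdr, the vitamin D receptor, rose in all 4 comparisons, most in FK228 embryos at 5.87 ± 0.206 FPKM against 0.0534 ± 0.0110 FPKM in DMSO embryos (log2 change 2.71 ± 0.23, limma adjusted p = 7.85e-08). Rapgef3 on its other side rose as well, by 1.82 to 2.41 on the log2 scale. Next to Hdac6, Gata1 went the other way, at 5.84 ± 3.51 FPKM in Hdac1 mutant embryos and 74.0 ± 7.83 FPKM in Hdac1 WT embryos (limma log2 change −3.55 ± 0.29, adjusted p = 1.15e-07). Eras, on the other side of Hdac6, was called only in Hdac1 mutant then H2O embryos, higher by 1.33 ± 0.32. Rises were not confined to the flanks of Hdac7 and Hdac11. Twist1 beside Hdac9 rose in all 4 comparisons, by 1.13 to 2.21 on the log2 scale. Twist2 beside Hdac4 was called only in FK228 embryos, higher by 2.19 ± 0.31. Whether position played a part was not tested.

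**Figure D3:**
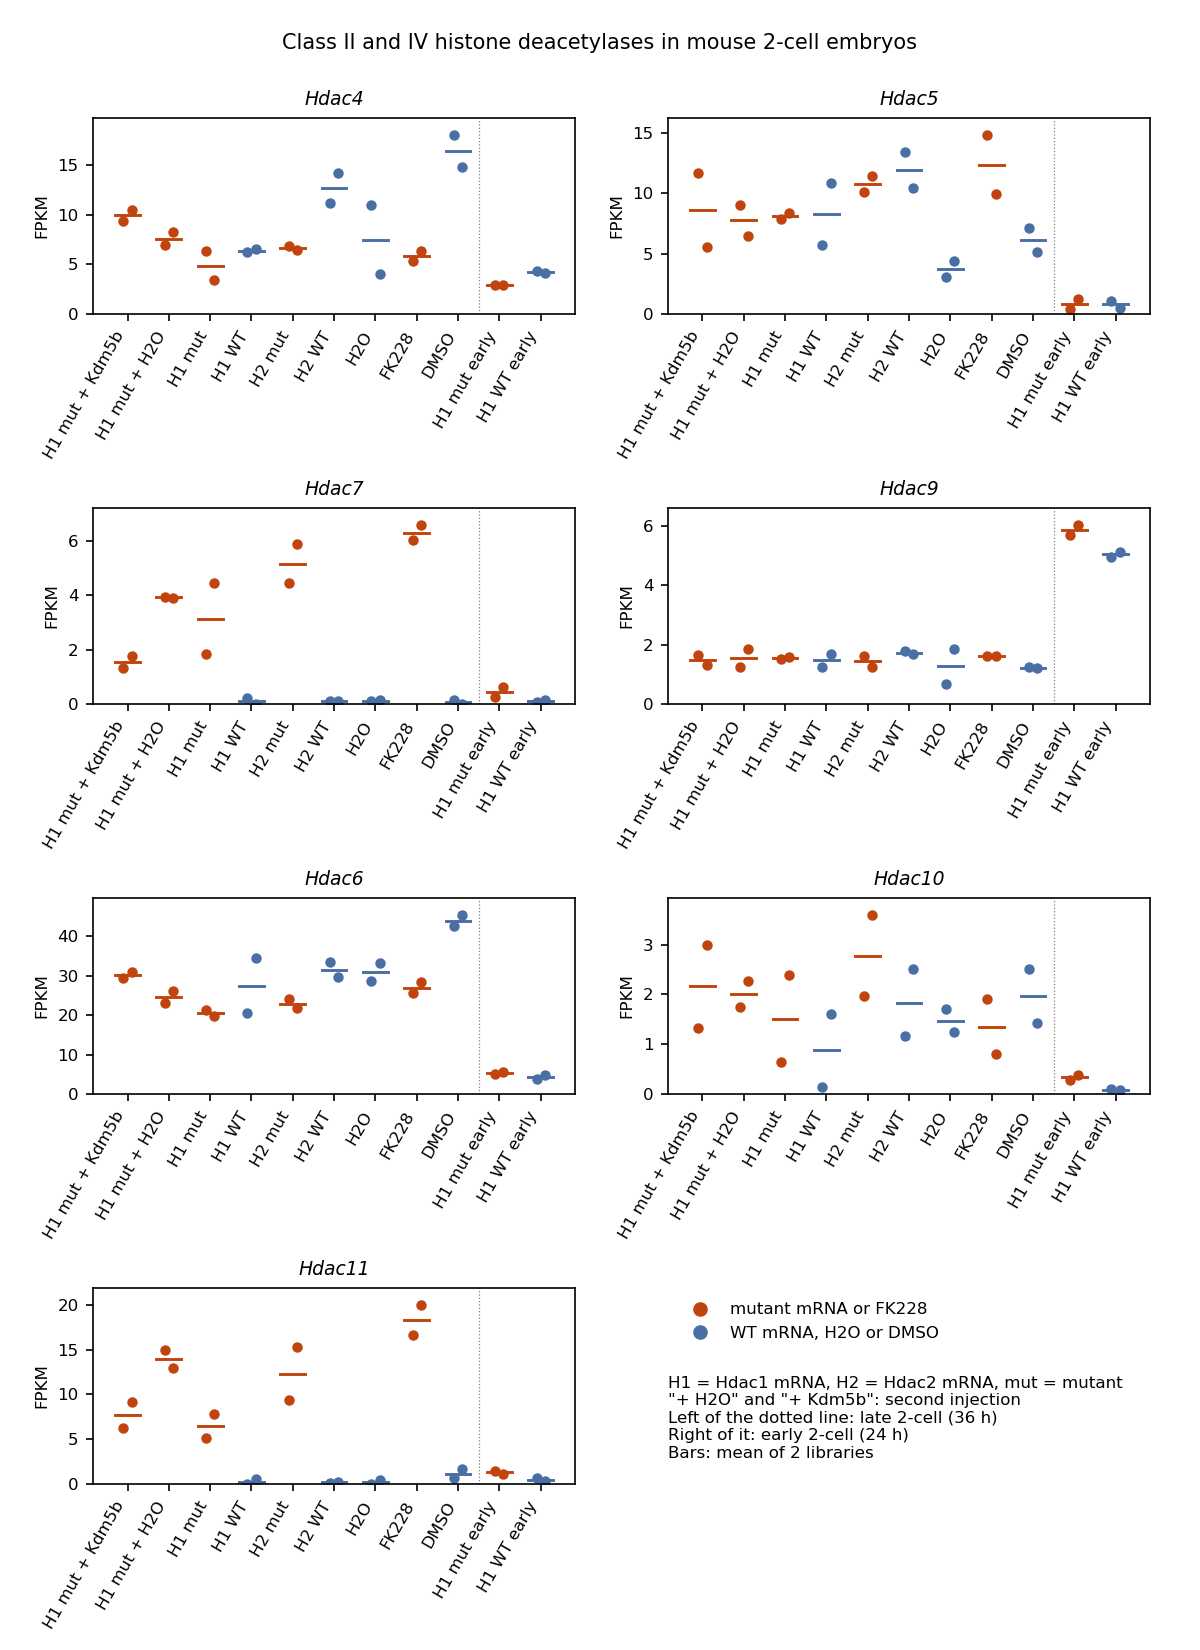
FPKM (y axis, linear, from 0) of each of the 7 genes in 11 groups of mouse embryos (x axis). Points are libraries, bars are means of 2, and the dotted line separates late from early 2-cell embryos. Hdac7 and Hdac11 are high in late embryos given mutant mRNA or FK228, while Hdac9 is high at the early stage.

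The other class IIa members did not follow Hdac7. Hdac4, a repressor of MEF2 in muscle and bone, fell in FK228 and in Hdac2 mutant embryos. It had 5.35 and 6.32 FPKM in FK228 embryos, against 18 and 14.8 FPKM in DMSO embryos. It had 6.88 and 6.49 FPKM in Hdac2 mutant embryos, against 11.1 and 14.2 FPKM in Hdac2 WT embryos. Neither pair of groups overlapped. The log2 changes were −1.34 ± 0.31 with FK228 (limma adjusted p = 0.00157) and −0.82 ± 0.31 with Hdac2 mutant (limma adjusted p = 0.0358). The Hdac2 mutant call was lost without Hdac2 mutant replicate 1 (limma adjusted p = 0.0914), without Hdac2 mutant replicate 2 (0.126) and without Hdac2 WT replicate 2 (0.19). In Hdac1 mutant embryos Hdac4 had 6.35 and 3.40 FPKM, against 6.24 and 6.52 FPKM in Hdac1 WT embryos, and in Hdac1 mutant then H2O embryos 6.93 and 8.23 FPKM, against 11 and 3.99 FPKM in H2O embryos. These groups overlapped, with log2 differences of −0.38 ± 0.31 and 0.14 ± 0.31 (limma adjusted p of 0.335 and 0.733). The higher H2O library decided the last value: without H2O replicate 1 the difference was 0.78 ± 0.26 (limma adjusted p = 0.0261). The late control groups themselves differed in Hdac4, from 3.99 to 18 FPKM over 8 libraries, a wider span than the 3.40 to 10.5 FPKM of the 10 mutant and FK228 libraries.

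Hdac5, the close relative of Hdac4, was called higher in FK228 embryos and in Hdac1 mutant then H2O embryos, and neither call was stable. It had 14.8 and 9.97 FPKM in FK228 embryos, against 7.09 and 5.13 FPKM in DMSO embryos. It had 9.05 and 6.48 FPKM in Hdac1 mutant then H2O embryos, against 3.10 and 4.43 FPKM in H2O embryos. The groups did not overlap, and the log2 changes were 0.90 ± 0.35 (limma adjusted p = 0.0373) and 0.88 ± 0.35 (limma adjusted p = 0.0452). The FK228 call was lost without FK228 replicate 1 (limma adjusted p = 0.235) or DMSO replicate 2 (0.199). The other call was lost without any one of its 4 libraries (limma adjusted p of 0.0509 to 0.24). Hdac1 mutant embryos had 7.85 and 8.32 FPKM, against 5.71 and 10.8 FPKM in Hdac1 WT embryos, and Hdac2 mutant embryos had 10.1 and 11.4 FPKM, against 13.4 and 10.4 FPKM in Hdac2 WT embryos. Both pairs overlapped, with differences of 0.03 ± 0.35 and −0.13 ± 0.35 on the log2 scale.

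Hdac9, whose gene is itself a MEF2 target in muscle, kept a low level in late embryos, from 0.693 to 1.85 FPKM over all 18 libraries. Its log2 differences lay between −0.16 ± 0.22 and 0.23 ± 0.22 in the 4 comparisons, and none was called. FK228 embryos had 1.62 and 1.62 FPKM, against 1.24 and 1.22 FPKM in DMSO embryos, groups that did not overlap although limma gave an adjusted p of 0.4. These values depended on the scaling. After quantile normalization all 4 were below 0, and Hdac9 was called lower in Hdac2 mutant embryos at −0.77 ± 0.21 (limma adjusted p = 0.00643) and in Hdac1 mutant embryos at −0.57 ± 0.21 (limma adjusted p = 0.0362). Without H2O replicate 2 it was called higher in Hdac1 mutant then H2O embryos, at 0.58 ± 0.22 (limma adjusted p = 0.0418).

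Among the class IIb members, Hdac6, the cytoplasmic tubulin deacetylase, fell in FK228 embryos. It had 25.6 and 28.3 FPKM in FK228 embryos, against 42.5 and 45.3 FPKM in DMSO embryos. The groups were apart and the log2 change was −0.69 ± 0.19 (limma adjusted p = 0.0055). After quantile normalization, which draws the distributions of all libraries together, the difference was −0.17 ± 0.19 (limma adjusted p = 0.476). Hdac6 had 24.0 and 21.9 FPKM in Hdac2 mutant embryos, against 33.4 and 29.7 FPKM in Hdac2 WT embryos. It had 23.2 and 26.2 FPKM in Hdac1 mutant then H2O embryos, against 28.7 and 33.3 FPKM in H2O embryos. These pairs did not overlap, but neither passed the test, with log2 differences of −0.44 ± 0.19 (limma adjusted p = 0.0603) and −0.31 ± 0.19 (0.178). Both lay near the threshold: the Hdac2 mutant difference was called with a replicate block (limma adjusted p = 0.049) and when only its groups were fitted (0.0441), and the other one after median-ratio scaling, at −0.55 ± 0.19 (0.0257). In Hdac1 mutant embryos Hdac6 had 21.2 and 19.9 FPKM, against 20.5 and 34.4 FPKM in Hdac1 WT embryos. That difference of −0.36 ± 0.19 was not called (limma adjusted p = 0.128), and Hdac1 WT replicate 1 decided it, since without that library it was −0.72 ± 0.17 (limma adjusted p = 0.00285). Hdac10, the polyamine deacetylase, could not be placed well. Its 18 late libraries ran from 0.138 to 3.59 FPKM, the replicates of a group differed as much as the groups, and no comparison of late groups called it. The 95% intervals of its log2 difference in the 4 comparisons spanned −1.27 to 1.37. Tubgcp6, a gamma-tubulin complex gene on the same strand, starts 195 bases past the end of Hdac10. Tubgcp6 fell in all 4 comparisons, for example to 5.28 ± 0.957 FPKM in FK228 embryos against 19.3 ± 0.954 FPKM in DMSO embryos (limma log2 change −1.7 ± 0.24, adjusted p = 2.07e-05).

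**Figure D4:**
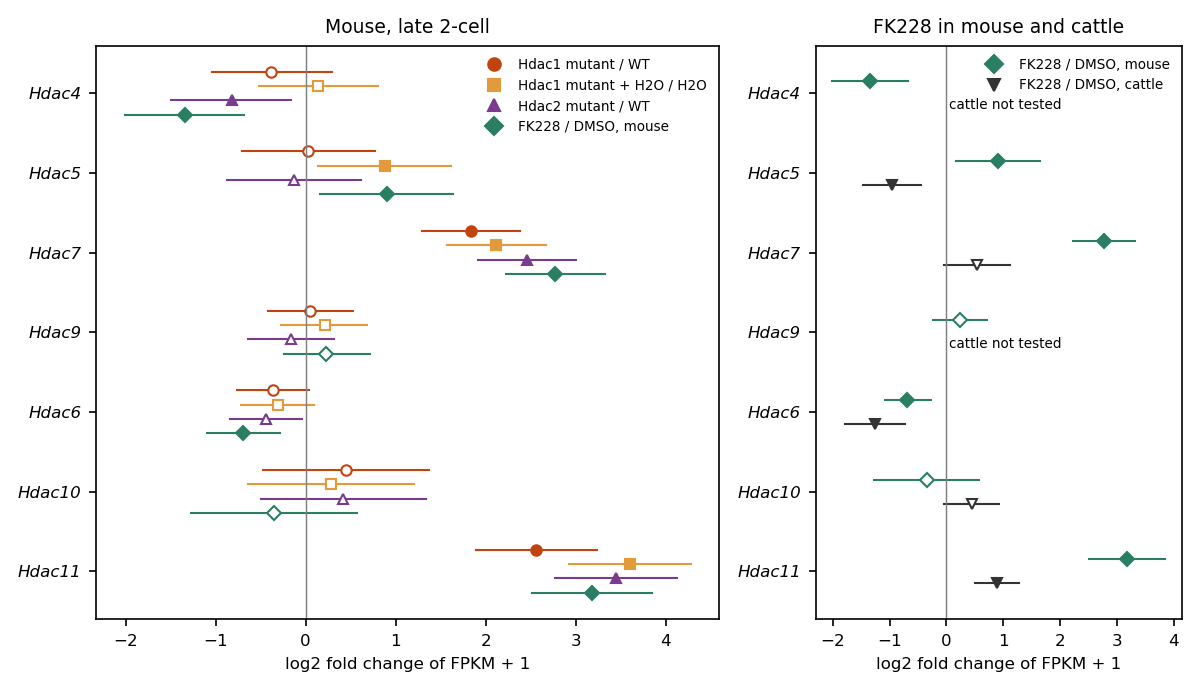
Log2 fold changes of FPKM + 1 (x axis, points) with 95% confidence intervals (lines) for each gene, in 4 comparisons of late mouse embryos (left) and for FK228 against DMSO in mouse and cattle (right). Filled points passed an adjusted p of 0.05; Hdac7 and Hdac11 lie to the right of 0 in all 4 mouse comparisons, and Hdac5 lies on opposite sides of 0 in mouse and cattle.

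Whether the Hdac1 mutant, the Hdac2 mutant and FK228 differed in their effect on the members was tested directly. None of the 7 members differed between the Hdac1 and Hdac2 mutant effects, where limma called 0.104% of all genes (1658 genes at an unadjusted p under 0.05). None differed between the Hdac1 mutant and FK228 effects (6.97% of genes called, 4155 at an unadjusted p under 0.05) or between the Hdac2 mutant and FK228 effects (2.08% called, 3127 unadjusted). The difference for Hdac7 between the Hdac1 mutant and FK228 effects was −0.94 (95% CI −1.71 to −0.16, limma adjusted p = 0.13). Without Hdac1 mutant replicate 2 it was −1.41 ± 0.30 and was called (limma adjusted p = 0.0149). For Hdac11 the same difference was −0.62 (95% CI −1.57 to 0.34), and between Hdac1 and Hdac2 mutants −0.88 (95% CI −1.84 to 0.07).

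In Hdac1 mutant embryos given Kdm5b mRNA, Hdac7 and Hdac11 were lower in both libraries than with H2O, without a call. Kdm5b stood at 616 ± 31.5 FPKM in Hdac1 mutant then Kdm5b embryos and 67.6 ± 8.96 FPKM in Hdac1 mutant then H2O embryos. Hdac7 had 1.35 and 1.77 FPKM with Kdm5b, against 3.95 and 3.92 FPKM with H2O. Hdac11 had 6.24 and 9.21 FPKM with Kdm5b, against 14.9 and 12.9 FPKM with H2O. The groups did not overlap, but the log2 differences of −0.95 ± 0.26 (95% CI −1.50 to −0.41) and −0.79 ± 0.32 (95% CI −1.47 to −0.12) had limma adjusted p of 0.085 and 0.241. Hdac4 and Hdac6 were also non-overlapping, in the opposite direction. Hdac4 had 9.38 and 10.5 FPKM with Kdm5b, against 6.93 and 8.23 FPKM with H2O. Hdac6 had 29.3 and 30.8 FPKM with Kdm5b, against 23.2 and 26.2 FPKM with H2O. The share of all genes without overlap was not computed, so non-overlap is no result about these members. None of the 7 members was called, where 1.04% of all genes were (2586 genes at an unadjusted p under 0.05). Blood markers summed to 89.3 to 98 FPKM with Kdm5b and 132 to 144 FPKM with H2O. Even with Kdm5b, both libraries of Hdac7 and Hdac11 stayed above every late control library.

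Hdac5, Hdac6 and Hdac9 changed with stage. In late against early 2-cell embryos with Hdac1 WT mRNA, Hdac5 and Hdac6 rose and Hdac9 fell, and limma called 3 of 7 members where 56.8% of all genes were called. Hdac5 had 5.71 and 10.8 FPKM in late Hdac1 WT embryos, against 1.11 and 0.548 FPKM in early ones. Hdac6 had 20.5 and 34.4 FPKM late, against 3.76 and 4.87 FPKM early. Hdac9 had 1.25 and 1.7 FPKM late, against 4.96 and 5.12 FPKM early. In each of them the late and early libraries were well apart. The log2 changes were 2.30 ± 0.35 for Hdac5, 2.38 ± 0.19 for Hdac6 and −1.29 ± 0.22 for Hdac9, with limma adjusted p of 3.18e-05, 2.51e-08 and 0.000117. Hdac1 mutant embryos repeated these 3 changes, with 2.34 ± 0.35, 1.75 ± 0.19 and −1.42 ± 0.22, and added Hdac7 (1.44 ± 0.26, limma adjusted p = 0.000143) and Hdac11 (1.68 ± 0.32, limma adjusted p = 0.00024), 5 of 7 members where 66.4% of all genes were called. That Hdac7 call was lost when only the groups compared were fitted (limma adjusted p = 0.0534). Hdac7 and Hdac11 had no call in Hdac1 WT embryos between the stages, at −0.04 ± 0.26 and −0.26 ± 0.32 on the log2 scale. The comparisons of late with early embryos share the late libraries with the comparison of mutant with WT.

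At the early 2-cell stage no member passed the test in Hdac1 mutant embryos. Hdac11 had 1.46 and 1.18 FPKM in early Hdac1 mutant embryos, against 0.711 and 0.315 FPKM in early Hdac1 WT embryos. Hdac7 had 0.278 and 0.630 FPKM in early Hdac1 mutant embryos, against 0.0978 and 0.174 FPKM in early Hdac1 WT embryos. The groups did not overlap in either gene, and the mutant was the higher one, but limma gave adjusted p of 0.898 and 1. Hdac6, Hdac9 and Hdac10 were likewise higher in the early mutant without overlap, and Hdac4 was lower without overlap. The share of all genes without overlap was not computed, so non-overlap is no result about these members. The count of calls was 0 of 7 members where limma called 0.56% of all genes (1057 at an unadjusted p under 0.05). Blood markers summed to 7.67 to 10.5 FPKM in early Hdac1 mutant embryos and 1.46 to 2.39 FPKM in early Hdac1 WT embryos. The effect of the mutant was larger late than early for both, by 1.49 ± 0.36 on the log2 scale for Hdac7 (limma adjusted p = 0.00453) and 1.94 ± 0.45 for Hdac11 (0.0031), 2 of 7 members where 36.4% of all genes differed. The Hdac7 difference lost its call after quantile normalization (0.92 ± 0.39, limma adjusted p = 0.0849) and when only these 4 groups were fitted (limma adjusted p = 0.0581). Hdac1 itself stood at 3480 ± 746 FPKM in early mutant and 5890 ± 1930 FPKM in early WT embryos. Late, the order was reversed, at 4780 ± 240 FPKM in mutant and 2830 ± 179 FPKM in WT embryos. The part of these unequal amounts in the stage difference was not tested.

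Injection of WT mRNA was set against H2O. In late Hdac1 WT embryos none of the 7 members was called, where limma called 2.19% of all genes (2739 at an unadjusted p under 0.05). Hdac5 was nonetheless apart, with 5.71 and 10.8 FPKM in Hdac1 WT embryos, against 3.10 and 4.43 FPKM in H2O embryos (log2 difference 0.92, 95% CI 0.18 to 1.66, limma adjusted p = 0.203). Hdac5 alone was called in Hdac2 WT embryos, 1 of 7 where 9.45% of all genes were. It had 13.4 and 10.4 FPKM in Hdac2 WT embryos, against 3.10 and 4.43 FPKM in H2O embryos, a log2 change of 1.44 ± 0.35 (limma adjusted p = 0.0162). The call was lost without Hdac2 WT replicate 1, Hdac2 WT replicate 2 or H2O replicate 1 (limma adjusted p of 0.108, 0.0514 and 0.116). Hdac4 was just apart and not called, with 11.1 and 14.2 FPKM in Hdac2 WT embryos, against 11 and 3.99 FPKM in H2O embryos (log2 difference 0.81 ± 0.31, limma adjusted p = 0.123). Without H2O replicate 1, Hdac4 was called in its place, at 1.45 ± 0.26 (limma adjusted p = 0.00675).

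In cattle, HDAC11 rose and HDAC5 and HDAC6 fell with FK228. HDAC4 and HDAC9 did not pass the filter, and 3 of the 5 tested members were called where limma called 49.6% of all bovine genes. HDAC11 had 64.4 and 58.1 FPKM in FK228 embryos, against 34.3 and 30.9 FPKM in DMSO embryos. HDAC5 had 15.4 and 10.5 FPKM in FK228 embryos, against 23.5 and 28.0 FPKM in DMSO embryos. HDAC6 had 2.73 and 1.81 FPKM in FK228 embryos, against 7.08 and 6.39 FPKM in DMSO embryos. All 3 pairs were apart, and the log2 changes were 0.89 ± 0.16 for HDAC11, −0.96 ± 0.22 for HDAC5 and −1.25 ± 0.23 for HDAC6 (limma adjusted p of 0.00264, 0.0076 and 0.00251). The HDAC5 call was lost without DMSO replicate 2 (limma adjusted p = 0.0525). HDAC7 had 21.7 and 20.6 FPKM in FK228 embryos, against 10.8 and 18.7 FPKM in DMSO embryos, and HDAC10 had 6.61 and 7.92 FPKM in FK228 embryos, against 4.68 and 5.45 FPKM in DMSO embryos. Both were higher in FK228 embryos without overlap, but not called (limma log2 differences of 0.53 ± 0.25 and 0.44 ± 0.21, adjusted p of 0.109 and 0.114). For HDAC7 the result turned on DMSO replicate 2, without which the difference was 0.90 ± 0.23 (limma adjusted p = 0.0194). HDAC4, not tested, had 0.243 and 0.356 FPKM in FK228 embryos, against 0.0779 and 0.123 FPKM in DMSO embryos, and HDAC9 had 0.959 and 0.636 FPKM in FK228 embryos, against 1.02 and 0.457 FPKM in DMSO embryos. The blood genes in the bovine values summed to 0.169 to 0.788 FPKM in FK228 embryos and 0.231 to 0.244 FPKM in DMSO embryos.

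Set side by side, FK228 raised Hdac11 and lowered Hdac6 in both species, at 3.18 and −0.69 on the log2 scale in mouse and 0.89 and −1.25 in cattle. The mouse Hdac6 difference was −0.17 ± 0.19 after quantile normalization (limma adjusted p = 0.476). Its DMSO group, at 43.9 ± 1.94 FPKM, was the highest mouse group. The other late controls included Hdac2 WT at 31.5 ± 2.57 FPKM and H2O at 31.0 ± 3.25 FPKM. HDAC11 started from 32.6 ± 2.45 FPKM in bovine DMSO embryos, unlike the mouse gene at 1.18 ± 0.747 FPKM. Hdac5 was called in opposite directions, at 0.90 in mouse and −0.96 in cattle. Stage, hours of culture and normalization differ between the species, and the difference was not tested.

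Lists of genes around the members were counted beside all genes tested. Over all mouse genes, 30.5% rose and 21.6% fell in Hdac1 mutant embryos, 34.5% and 18.1% in Hdac1 mutant then H2O embryos, 30.8% and 22.2% in Hdac2 mutant embryos, and 31.0% and 26.3% in FK228 embryos, and 22.2% and 27.4% of bovine genes did so with FK228. No difference between a list and all genes was tested. Of 12 MEF2 and class IIa target genes, a list that includes Hdac9, 9 were tested. Of these, 7 rose in Hdac1 mutant embryos, 8 in Hdac1 mutant then H2O embryos, 8 in Hdac2 mutant embryos and 7 in FK228 embryos, and 0 fell in any. Their median log2 change was 1.55, 1.68, 1.49 and 2.03 in that order, beside 0.17, 0.25, 0.14 and 0.15 over all genes tested; genes silent in controls pass the filter mainly through high values in other groups. Slc2a4, the insulin-responsive glucose transporter, was at 13.3 ± 1.1 FPKM in Hdac1 mutant embryos and 0.698 ± 0.527 FPKM in Hdac1 WT embryos. Nr4a3, an orphan nuclear receptor, was at 10.7 ± 1.16 FPKM in Hdac2 mutant embryos and 0.0455 ± 0.0198 FPKM in Hdac2 WT embryos. Both rose (limma log2 changes 3.10 ± 0.29 and 3.48 ± 0.24, adjusted p of 3.34e-07 and 1.48e-08). In cattle 3 of 7 tested genes of this list rose and 0 fell, among them SLC2A4 at 16.0 ± 3.82 FPKM in FK228 embryos and 4.47 ± 0.364 FPKM in DMSO embryos (limma log2 change 1.61 ± 0.22, adjusted p = 0.000648).

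Among 15 tested partners of class IIa enzymes, 8 rose and 1 fell in Hdac1 mutant embryos, 9 and 1 in Hdac1 mutant then H2O embryos, 6 and 2 in Hdac2 mutant embryos, and 4 and 3 in FK228 embryos, which is 7 to 10 called of 15 where 52.1 to 57.2% of all genes were. Mef2b, a MEF2 transcription factor, was at 27.8 ± 0.123 FPKM in FK228 embryos and 1.76 ± 0.588 FPKM in DMSO embryos. Hdac3, the class I enzyme that gives class IIa complexes their catalysis, was at 8.94 ± 2.98 FPKM in FK228 embryos and 0.472 ± 0.119 FPKM in DMSO embryos. Both rose with FK228 (limma log2 changes 3.40 ± 0.36 and 2.72 ± 0.29, adjusted p of 8.53e-07 and 1.09e-06), and MEF2B and HDAC3 rose in cattle too (2.00 ± 0.25 and 1.29 ± 0.36, limma adjusted p of 0.000382 and 0.0175). The 14-3-3 proteins and the export receptor Xpo1, which take class IIa enzymes out of the nucleus, are 8 genes: 5 of them fell in each mouse comparison, where 18.1 to 26.3% of all genes fell, and 1, 2, 1 and 0 rose in the order Hdac1 mutant, Hdac1 mutant then H2O, Hdac2 mutant and FK228. Xpo1 was at 14 ± 3.24 FPKM in FK228 embryos and 90.1 ± 1 FPKM in DMSO embryos, and the 14-3-3 gene Ywhah at 13.4 ± 0.727 FPKM in Hdac2 mutant embryos and 83.0 ± 4.11 FPKM in Hdac2 WT embryos. These are log2 changes of −2.62 ± 0.16 and −2.54 ± 0.11 (limma adjusted p of 4.54e-09 and 7.7e-10). Of 15 tested kinases that phosphorylate class IIa enzymes, 4 or 5 rose and 2 or 3 fell in each mouse comparison, 6 to 8 called of 15, near the share over all genes. Mark3, for one, was at 9.10 ± 0.512 FPKM in FK228 embryos and 34.8 ± 1.21 FPKM in DMSO embryos (limma log2 change −1.83 ± 0.18, adjusted p = 3.62e-07).

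The lists around the class IIb and class IV members are read against the same shares of all genes. Of 16 Hdac6 substrates and partners, 7 rose and 7 fell in Hdac1 mutant embryos, 7 and 5 in Hdac1 mutant then H2O embryos, 8 and 5 in Hdac2 mutant embryos, and 7 and 6 in FK228 embryos. The alpha-tubulin Tuba1a, a substrate class of Hdac6, was at 80.2 ± 4.91 FPKM in Hdac2 mutant embryos and 9.21 ± 0.620 FPKM in Hdac2 WT embryos (limma log2 change 2.99 ± 0.18, adjusted p = 6.15e-09). In cattle 3 of the 16 rose and 8 fell, where 49.6% of all genes were called, and TUBA1A was at 22 ± 0.786 FPKM in FK228 embryos and 166 ± 3.49 FPKM in DMSO embryos (limma log2 change −2.86 ± 0.15, adjusted p = 2.4e-05). Alpha-tubulin genes are close copies of each other and may share reads. Of 12 genes of polyamine metabolism, the pathway Hdac10 acts on, 7 fell in Hdac1 mutant embryos, 6 in Hdac1 mutant then H2O embryos, 9 in Hdac2 mutant embryos and 8 in FK228 embryos, and 1, 1, 0 and 2 rose in that order, 7 to 10 called of 12. Odc1, which makes putrescine, was at 141 ± 2.00 FPKM in Hdac2 mutant embryos and 401 ± 31.1 FPKM in Hdac2 WT embryos (limma log2 change −1.50 ± 0.13, adjusted p = 1.07e-07). Sat1, which acetylates polyamines, was at 29.3 ± 9.32 FPKM in FK228 embryos and 129 ± 14.4 FPKM in DMSO embryos (limma log2 change −2.13 ± 0.19, adjusted p = 1.7e-07). Of 5 genes around the acyl chemistry of Hdac11, its substrate Shmt2 with Shmt1, Nmt1, Nmt2 and Sirt6, 2 rose and 3 fell in Hdac1 mutant embryos, 2 and 2 in Hdac1 mutant then H2O embryos, 0 and 2 in Hdac2 mutant embryos, and 0 and 3 in FK228 embryos.

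The genes most like each member were those with the highest Pearson r of log2(FPKM + 1) over the 22 mouse libraries, which fall into groups by stage and treatment. For Hdac7 they were Prdm8, Samd14 and Kcnj2 (r of 0.986, 0.983 and 0.98), and for Hdac11 they included Cpm and Igsf8 (0.981 and 0.979). Over the 18 late libraries alone these r were 0.978 to 0.984. For Hdac6 they were Brpf1, Gtf2h5 and Atp5g1 (0.984, 0.98 and 0.978), with 0.813 to 0.87 in late libraries. For Hdac9 they were Nrg4, Npm2 and Slc25a15 (0.973, 0.972 and 0.97), with 0.619 to 0.761 in late libraries. Hdac5 was closest to Jade1, Klf3 and Alpl (0.945, 0.935 and 0.93), Hdac4 to Ndufs7, Gps2 and Ubr4 (0.908, 0.907 and 0.897) and Hdac10 to Tmx2, Fam219b and Scp2 (0.902, 0.879 and 0.856).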

How the data were processed

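Poly(A) RNA of 22 mouse and 4 bovine embryo libraries was used as the FPKM per gene and library that the authors deposited, with a table for each species and 0 columns without a sample. Per the submitters' processing notes, Trimmomatic, HISAT2, featureCounts, Cufflinks and DESeq2 were named, with the builds GRCm38 and ARS-UCD1.2; their versions and roles are not stated by any source consulted. FPKM divide by length and library total, so changes in abundant genes shift all others, and DESeq2 was not run here because FPKM are not counts. Absolute depth is unknown, and no counting intervals were computed.

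Tests covered genes that reached 1 FPKM in 2 or more libraries, 17336 of mouse and 12590 of cattle. The models were made with limma 3.58.1 (R 4.3.3) on log2(FPKM + 1), with 1 coefficient per group over all 22 mouse libraries and separately over the 4 bovine ones, an empirical Bayes trend and two-sided tests. Benjamini-Hochberg adjustment ran over all genes tested, and genes under an adjusted p of 0.05 count as called. The fit was tested on simulated data. Groups were compared pairwise in 11 comparisons, and 4 differences of such effects were tested. Alternatives were a pseudocount of 0.1, a minimum of 5 FPKM, no filter, median-ratio scaling, quantile normalization, a fit of only the groups compared, a replicate block and each library left out. Figures used Python 3.11.15, pandas 2.3.3 and matplotlib 3.10.9.

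The members and gene lists were chosen with earlier results of these data known. Genes named from a list came from up to 2 per comparison, the calls with the largest change among genes averaging 5 FPKM or more in their higher group; the 3 genes most like a member were taken by Pearson r, leaving out clones and predicted models, and some genes that these rules name are not reported here. Flanking genes were the nearest protein-coding gene on each side.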

Additional observations from a re-analysis of the deposited data

Results flagged for a closer look

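Hdac5 and Hdac4 differed in direction between mouse and cattle under FK228, with both FK228 libraries on one side of both DMSO libraries in each species. Hdac5 changed by 0.90 on the log2 scale in mouse (14.8 and 9.97 FPKM with FK228, against 7.09 and 5.13 FPKM with DMSO), and HDAC5 by −0.96 in cattle (15.4 and 10.5 FPKM with FK228, against 23.5 and 28.0 FPKM with DMSO). The mouse Hdac5 call was lost under 5 of 11 alternatives (limma adjusted p up to 0.235) and the bovine call under 1 of 10 (0.0525). Hdac4 changed by −1.34 in mouse, while bovine HDAC4 had 0.243 and 0.356 FPKM with FK228, against 0.0779 and 0.123 FPKM with DMSO. The difference between species was not tested, since the values were normalized separately, and HDAC4 was too low in cattle to be fitted.

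The effect of the Hdac1 mutant was larger at the late than at the early 2-cell stage for Hdac7, by 1.49 on the log2 scale (limma adjusted p = 0.00453), and for Hdac11, by 1.94 (limma adjusted p = 0.0031). Both late mutant libraries exceeded both late WT libraries in each gene, and the same held at the early stage. Among early libraries it also held for Hdac6, Hdac9 and Hdac10. Hdac1 mRNA itself was higher in mutant than in WT embryos late and lower early, and the part of this was not tested.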

How the results depend on the processing

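Over all comparisons, 1226 values of single members were recomputed under the alternatives, and 1182 kept their direction and their side of the threshold. Another 29 were no longer called, 14 became called, and 1 turned round, Hdac9 in late Hdac1 mutant against WT embryos at −0.57 after quantile normalization (limma adjusted p = 0.0362), against 0.05 as deposited. Hdac7 and Hdac11 were called higher in each of the 4 late comparisons under all 48 settings apiece, with log2 changes of 1.31 to 5.36 and 2.24 to 5.70 and a highest limma adjusted p of 0.0475 and 0.0235. HDAC11 and HDAC6 in cattle kept their calls under all 11 settings.

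Counts of called members moved by more than 1.5 times in 3 comparisons, and by 1 member in others: to 3 from 2 for late Hdac1 mutant, 2 to 4 from 3 for Hdac2 mutant, 4 from 5 for FK228 and 2 from 3 for Hdac1 mutant then H2O embryos, and to 4 from 3 and 4 to 6 from 5 between stages in Hdac1 WT and Hdac1 mutant embryos. In Hdac2 WT against H2O the count was 1, and it was 0 after quantile normalization, 0 when only the groups compared were fitted, and 0 to 1 with a library left out. In the late minus early difference it was 2, and it was 1 after quantile normalization, 1 with only those groups, and 2 to 3 with a library left out. In the Hdac1 mutant minus FK228 difference it was 0, and 0 to 1 with a library left out. The cause was not tested, beyond fewer libraries in the fits of only the groups compared.

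The labels do not say that replicate numbers mark shared batches, and same-numbered libraries deviated together only weakly, with r of −0.059 to 0.175 in mouse and 0.233 in cattle. With a replicate block, Hdac6 in Hdac2 mutant embryos became called (−0.44, limma adjusted p = 0.049) and Hdac5 in Hdac1 mutant then H2O embryos did not stay called (0.88, limma adjusted p = 0.0503). The block changed no other call of a member.

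Scaling moved the median of all genes. It was 0.14 to 0.25 on the log2 scale in the 4 late comparisons as deposited and −0.09 to −0.04 after quantile normalization, and the share of calls that were higher went to 47.7 to 49.7%, against 54.1 to 65.5% as deposited. Counts over all genes moved by more than 1.5 times when only the groups compared were fitted in these comparisons: 5304 against 9027 genes for Hdac1 mutant against WT, and 0 against 181 for Kdm5b, 379 for Hdac1 WT and 1638 for Hdac2 WT against H2O, 97 at the early stage and 18 between the mutants, with 6 against 1208 and 52 against 360 between Hdac1 or Hdac2 mutant and FK228. With a pseudocount of 0.1 those counts were 12 for Kdm5b, 300 at the early stage, 7 between the mutants, and 759 and 158 between mutants and FK228. For Kdm5b, median-ratio scaling gave 84 and quantile normalization 108, which gave 144 for Hdac1 WT against H2O; without a filter 31 genes differed between the mutants. With a library left out, the counts were 12 to 131 for Kdm5b, 179 to 726 for Hdac1 WT and 764 to 1467 for Hdac2 WT against H2O, 27 to 98 early, 11 to 88 between the mutants, and 442 to 1374 and 45 to 500 between mutants and FK228.

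Levels under about 1 FPKM, as for Hdac7, Hdac11 and Hdac10 in controls, rest on an unknown number of reads, so their fold changes carry the pseudocount.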
